A study of Mus musculus with 6 samples.

Results

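Claudins and their partners in the tight junction were read as 9 genes of mouse pancreatic islets: the claudins Cldn1, Cldn3, Cldn4, Cldn7, Cldn8 and Cldn12, the membrane proteins Ocln and F11r, and the scaffold gene Tjp1. They were found by symbol among the 56980 Ensembl gene IDs of the count table, and all 9 were present and passed the filter on low counts. The members were chosen by their measured values in the knockout versus control contrast of these same 6 libraries. Their levels and the statistics of that contrast are therefore given as a description, and they are not independent evidence of a change.

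Total RNA of whole islets was sequenced from 14-week-old mice. The 3 control libraries came from animals with the genotype SSBP3F/F, that is, with floxed Ssbp3 alleles, and the 3 knockout libraries from littermates with SSBP3F/F and MIP-CreER. MIP-CreER is a Cre recombinase fused to a modified estrogen receptor and driven by the mouse insulin promoter, which directs it to beta cells, while the RNA comes from every cell of the islet preparation. The enzyme acts only with tamoxifen, whose dosing the labels used here do not describe. No library with MIP-CreER and intact Ssbp3 was analysed here, so effects of the transgene and of the loss of Ssbp3 cannot be told apart. Whether a library is 1 animal or a pool is not said in the labels, and p-values therefore cover only the differences among these libraries, which may be technical. In bulk RNA, fewer cells of a type and less RNA per cell cannot be told apart.

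Library totals ran from 14907641 to 225428920 counts, and each group had 1 shallow library, control 1 and knockout 1. Levels are given in CPM, counts scaled to a common library size. A floor of 3 counts was worth 0.0135 CPM in control 3, the deepest library, and 0.194 CPM in knockout 1, the shallowest, and covers counting error only. Ssbp3 (ENSMUSG00000061887) measured 65.8 to 81.3 CPM in the controls and 52.3 to 58.1 CPM in the knockouts (edgeR log2 fold change -0.40, SE 0.117, adjusted p = 0.0581). The endocrine hormones were present in every library, Ins1 at 33880 to 58600 CPM, Gcg at 17460 to 30460 CPM and Sst at 2015 to 5083 CPM. The exocrine marker Cpa1 was present too, at 947 to 3212 CPM.

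Tight junctions seal the space between neighbouring epithelial cells. Claudins are small proteins that span the membrane several times, and those on facing cells pair to form either a barrier or a pore selective for ions. Occludin (Ocln) and the junctional adhesion molecule JAM-A (F11r) lie beside them in the membrane, and ZO-1 (Tjp1) ties the claudins to actin from the cytoplasmic side. In the pancreas, duct and acinar cells carry tight junctions around their lumen, and endocrine cells also express claudins and ZO proteins.

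The tail of a claudin is the part that ZO proteins grip, through their PDZ domains, so the last 30 coding bases of the member claudins and of Cldn2 are shown here as the feature that links the claudins to Tjp1. They were read from GENCODE M21 transcripts (GRCm38), 5′ to 3′ on the coding strand, and the capitals mark the last 2 codons before the stop codon.
Cldn1: ccaacaccttctagtgggaaagacTATGTG
Cldn3: ggcaccgcctacgaccgcaaggacTACGTC
Cldn4: gcccgctctgtccccgccagcaacTATGTG
Cldn7: cccaagtccaattcctccaaggaaTACGTG
Cldn8: ccgagcatatactccaaaagtcagTATGTG
Cldn2: ttcaactcatacagcctgactgggTATGTG
Cldn12: atcgacattccagtagtctcacacAGCACT
Of these 7 genes, Cldn12 alone ended in serine and threonine, and the others ended in tyrosine and valine. The bases of Cldn8 lie at chr16:88562361-88562390 on the minus strand and those of Cldn12 at chr5:5507694-5507723 on the minus strand, both in coding exon sequence of GRCm38.

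Cldn8 was nearly absent from control islets and present in all knockout islets. Cldn8 (ENSMUSG00000050520) encodes a barrier-forming claudin that is known from the kidney collecting duct, where it works with Cldn4. It had 0, 10 and 8 counts in control 1, 2 and 3, against 308, 964 and 1159 counts in knockout 1, 2 and 3. In CPM these were 0, 0.124 and 0.0361 in the control libraries and 19.9, 12.04 and 10.99 in the knockout libraries. The groups were far apart, and the highest knockout value came from the shallowest library. The mean rose from 0.0535 ± 0.0640 to 14.3 ± 4.88 CPM (SD, n = 3 per group), an edgeR log2 fold change of 7.85 (SE 0.496; adjusted p = 8e-06), with the size resting on the few control counts. Cldn8 was called in each of 17 alternative analyses, with log2 fold changes from 7.16 to 8.83. Those analyses reuse the libraries by which Cldn8 was chosen, so they show stability to the settings and are not independent evidence. Cldn8 passed the filter on low counts through its knockout libraries.

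The most abundant claudins did not pass the test, and their control and knockout libraries overlapped. Cldn4 (ENSMUSG00000047501), a claudin of tight, poorly permeable epithelia, measured 389.7, 537 and 328 CPM in controls 1 to 3, against 459, 738 and 366 CPM in knockouts 1 to 3. Library 2 was the highest in both groups and library 3 the lowest. The means were 418 ± 107 and 521 ± 193 CPM, with an edgeR log2 fold change of 0.32 (SE 0.277; adjusted p = 0.576) that ran from -0.16 to 0.54 over the alternatives.

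Cldn3 (ENSMUSG00000070473), a sealing claudin, measured 85.4, 113 and 88.5 CPM in the control libraries and 108, 128 and 80.1 CPM in the knockout libraries. The lowest and the second highest of the 6 values were a knockout and a control library, so the groups interleaved (edgeR log2 fold change 0.14, SE 0.167, adjusted p = 0.701). Cldn7 (ENSMUSG00000018569), a claudin of lateral membranes that binds EpCAM, measured 119, 149 and 147 CPM in the control libraries and 125, 160.2 and 107 CPM in the knockout libraries. It was the only member with a fitted difference below 0 (-0.09, SE 0.152, edgeR adjusted p = 0.800), and it lay above 0 without knockout 3.

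Cldn12 and Cldn1 were not called either. Cldn12 (ENSMUSG00000046798), which has been linked to calcium uptake across gut epithelium, measured 47.4, 34.7 and 36.5 CPM in the controls, against 32.9, 44.7 and 46.0 CPM in the knockouts. Its lowest and its highest library were a knockout and a control library, both of them the shallow ones. Cldn1 (ENSMUSG00000022512), the claudin needed for the barrier of the epidermis, stayed between 1.18 and 1.81 CPM in all 6 libraries, and its fitted difference of 0.07 had an SE of 0.394.

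Ocln (ENSMUSG00000021638) was higher in all knockout libraries. It measured 18.8, 19.4 and 15.6 CPM in controls 1 to 3, against 29.1, 32.3 and 23.5 CPM in knockouts 1 to 3, with no overlap between the groups. The mean rose from 17.9 ± 2.06 to 28.3 ± 4.46 CPM (edgeR fitted fold 1.58, log2 fold change 0.66, SE 0.159, adjusted p = 0.0258). The call was lost without control 1, 2 or 3 (edgeR adjusted p 0.0732, 0.0598 and 0.0712) and without knockout 1 or 2 (0.0791 and 0.103), and its adjusted p ran from 0.00168 to 0.437 over the alternatives. F11r (ENSMUSG00000038235) measured 89.3, 96.9 and 73.4 CPM in the control and 89.0, 114 and 79.6 CPM in the knockout libraries. Its groups overlapped, and its edgeR log2 fold change of 0.12 (SE 0.149; adjusted p = 0.697) did not pass.

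Tjp1 (ENSMUSG00000030516) was also higher in all knockout libraries. It measured 51.7, 42.2 and 53.1 CPM in controls 1 to 3, against 65.7, 62.4 and 90.4 CPM in knockouts 1 to 3, with no overlap. The mean rose from 49.0 ± 5.94 to 72.8 ± 15.3 CPM (edgeR fitted fold 1.49, log2 fold change 0.58, SE 0.153, adjusted p = 0.0402). The call was lost without control 1 or 2 (edgeR adjusted p 0.106 and 0.180) and without knockout 1 or 3 (0.0741 and 0.107), and its adjusted p ran from 0.000741 to 0.496 over the alternatives. Knockout 3, the highest library for Tjp1, was the lowest knockout library for Cldn8 and Ocln.

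**Figure D1:**
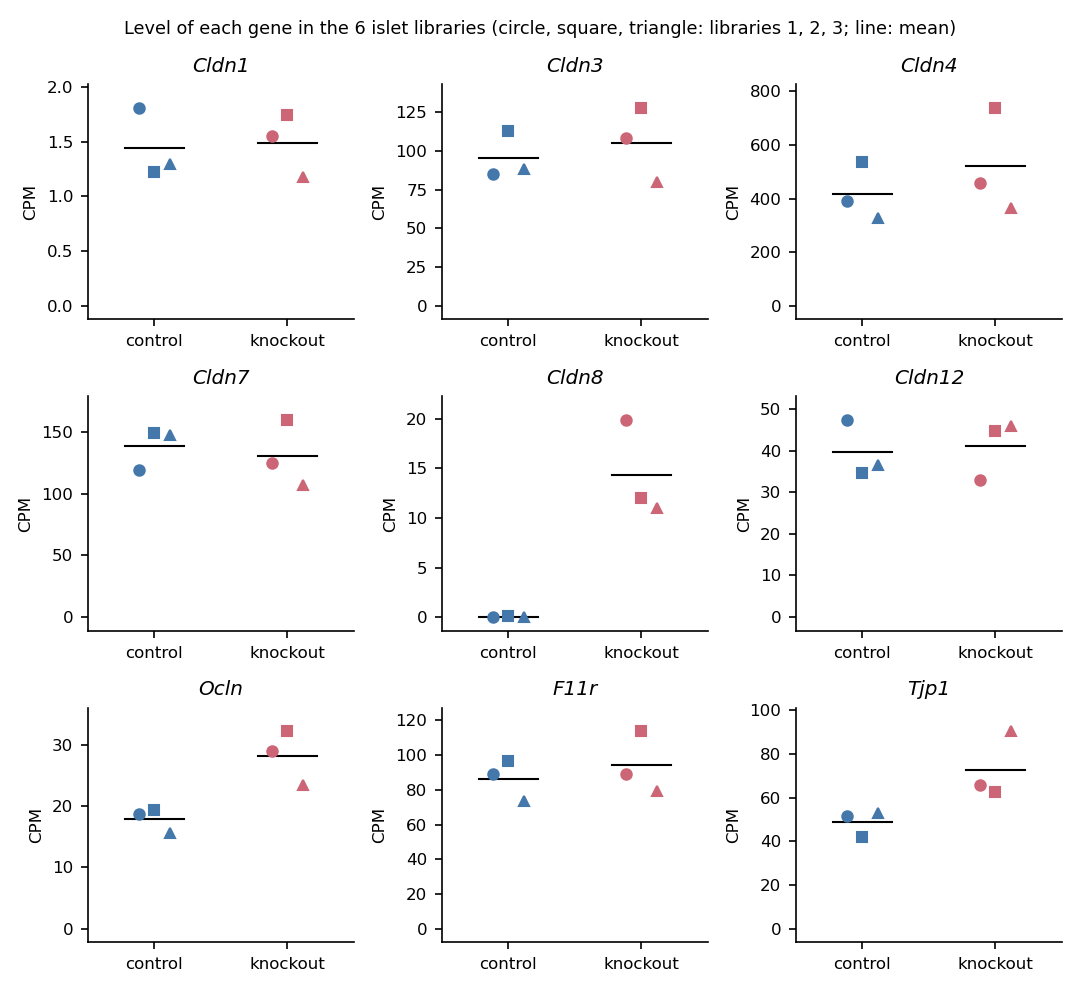
CPM of the 9 members in each library (linear axes; circle, square and triangle for libraries 1, 2 and 3 of a group; black line, group mean, n = 3). The groups are separate for Cldn8, Ocln and Tjp1 and overlap for the other 6 genes.

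Across the members, 3 of 9 were called (33.3%), each with the higher level in knockout islets. Of the 18558 genes tested, 7.07% were called in either direction, 3.72% higher and 3.35% lower in knockout. The libraries of the groups did not overlap for 3 of the 9, against 28.0% of all genes. The median log2 fold change of the members was 0.14, against -0.002 over all genes. Since the contrast itself chose the members, nothing is read from these shares. The choice named genes and set no threshold. Ordered by log2 fold change, the members ran from Cldn7 (-0.09) to Cldn8 (7.85), with Tjp1 (0.58) and Ocln (0.66) next below Cldn8.

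Compared per kb of annotated exon, the scale on which genes can be set against each other, Cldn4 was the leading member. In control islets its level was 230.2 ± 59.2 CPM per kb, followed by Cldn3 at 76.0 ± 12.1, Cldn7 at 71.2 ± 8.65 and F11r at 32.5 ± 4.50 CPM per kb. Cldn3 and Cldn7 overlapped in their libraries (67.8 to 89.9 and 61.2 to 76.6 CPM per kb), so their order is not settled. Cldn12 (9.35 ± 1.63), Tjp1 (6.27 ± 0.760), Ocln (4.25 ± 0.488), Cldn1 (0.298 ± 0.0658) and Cldn8 (0.0227 ± 0.0272) followed in CPM per kb without overlap between neighbours. In knockout islets Cldn8 reached 6.08 ± 2.07 CPM per kb, and its range of 4.66 to 8.46 overlapped those of Ocln (5.56 to 7.64), Cldn12 (7.77 to 10.9) and Tjp1 (7.99 to 11.6), while Cldn1 at 0.308 ± 0.0601 became the lowest member.

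The claudin family was dominated by the same 3 genes in all libraries. Over 34 claudin genes, of which 22 exceeded 3 counts in at least 1 library and 11 had 0 counts in every library, the summed level was 354 to 493 CPM per kb in control and 357 to 629 CPM per kb in knockout islets. Cldn3, Cldn4 and Cldn7 together made 91.5% to 93.7% of that sum in control and 89.6% to 93.8% in knockout libraries. Cldn4 alone made 56.0% ± 4.58 and 59.2% ± 4.69 (SD, n = 3 per group). Cldn8 went from 0.00501% ± 0.00539 to 1.34% ± 0.540 of the sum, so even in knockout islets it was a minor claudin, at 0.812% to 1.89% per library.

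**Figure D2:**
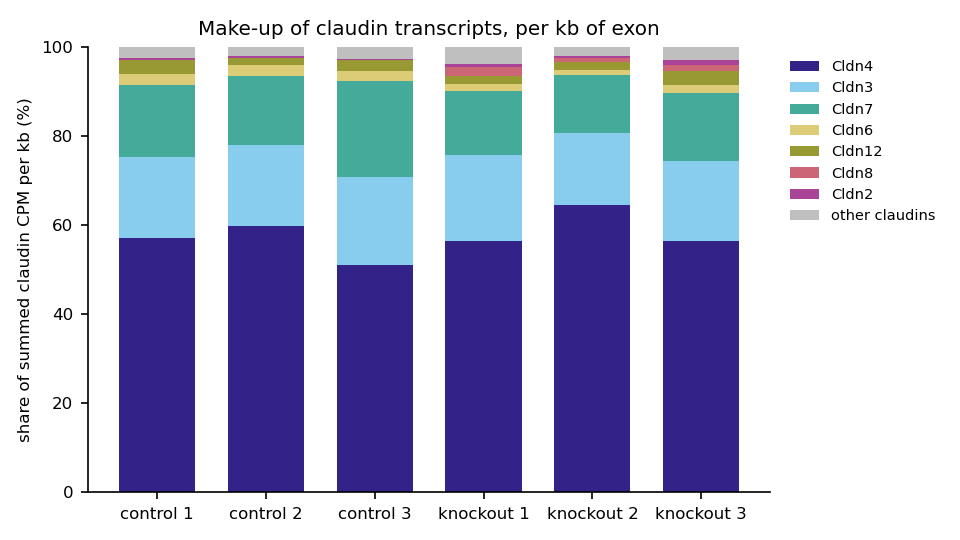
Share of each claudin in the summed claudin level of a library (percent of CPM per kb of exon, 1 bar per library, no error bars). Cldn4, Cldn3 and Cldn7 fill 89.6% to 93.8% of every bar, and the Cldn8 segment is visible in the 3 knockout bars only, at 0.812% to 1.89%.

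The wider tight junction list held 83 further genes in 6 roles, 82 of them matched to an ID and 63 tested. Of the 63, edgeR called 7 higher and 0 lower in knockout islets (11.1%, against 7.07% of all genes in either direction and 3.72% higher). At an unadjusted p under 0.05 there were 20 higher and 1 lower, against 21.6% of all genes in either direction. DESeq2 called 13 higher and 0 lower, against 13.1% of the 16037 genes to which it gave an adjusted p, and limma-voom 11 higher and 0 lower, against 9.30%. The groups did not overlap for 25 of the 63 (39.7%, against 28.0% of all genes), 22 of them higher in knockout. The median log2 fold change was 0.25, with 46 genes fitted above 0 and 17 below.

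Among the 12 other claudins and claudin-like genes tested, Cldn2 was called. Cldn2 (ENSMUSG00000047230) forms pores for cations and water, in contrast to the sealing claudins. Its control libraries 1, 2 and 3 stood at 4.74, 3.76 and 2.19 CPM, and its knockout libraries at 10.2, 9.93 and 13.9 CPM. The groups were separate, and the mean rose from 3.56 ± 1.29 to 11.3 ± 2.23 CPM (edgeR fitted fold 3.29, log2 fold change 1.72, SE 0.280, adjusted p = 0.00338). Cldn2 kept its call without any single library and lost it when both shallow libraries were left out (edgeR adjusted p = 0.0590). The genes of this role with the highest CPM were Cldnd1, at 34.1 and 31.9 CPM in the 2 groups, and Cldn6, a claudin of embryonic epithelia, at 16.9 and 12.4 CPM (control first). Their log2 fold changes were -0.09 and -0.45, and neither was called (edgeR adjusted p 0.783 and 0.138). Cldn34c1 and Cldn34c2 belong to a family of near-identical copies, so their counts are uncertain.

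No gene of the tricellular contacts or of the immunoglobulin-type adhesion proteins was called by edgeR. Ildr1 and Lsr, the angulins that mark the corners between cells, had log2 fold changes of 0.21 and 0.05 (edgeR adjusted p 0.282 and 0.890). Esam, an adhesion molecule best known from endothelium, and Cxadr, the coxsackievirus and adenovirus receptor, had 0.12 and 0.18 (edgeR adjusted p 0.642 and 0.561). These 2 roles held 5 tested genes each. At an unadjusted p under 0.05 there was 1 tricellular gene higher, DESeq2 called 1 and limma-voom 0.

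The scaffolds of the cytoplasmic plaque, the layer that contains ZO-1, had a median log2 fold change of 0.46 over 14 genes, against -0.002 over all genes, with 12 fitted above 0. For 8 of the 14 the groups did not overlap (57.1%, against 28.0% of all genes), and 2 were called (14.3%, against 7.07%). Of these 14 genes, 13 have over 4 kb of exon, the length classes in which the median of all genes lay above 0. Afdn, the afadin gene, whose product links nectins to actin, rose from 41.4 ± 2.35 to 63.2 ± 9.68 CPM (edgeR log2 fold change 0.61, SE 0.130, adjusted p = 0.0154). Leaving out control 1 or 2 ended that call (edgeR adjusted p 0.0732 and 0.0647). Cgn, the gene of the ZO-binding protein cingulin, went from 43.8 ± 1.24 to 61.0 ± 11.2 CPM and missed the threshold (edgeR adjusted p = 0.0525), and it was called in 6 of 17 alternatives.

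Polarity complexes place the junction along the lateral membrane, and 2 of their 15 genes were called (13.3%, against 7.07% of all genes). The role did not move in 1 direction: 10 genes were fitted above 0 and 5 below, with log2 fold changes from -0.95 to 0.77. The groups did not overlap for 6 of the 15 (40.0%, against 28.0% of all genes), 4 of them higher in knockout. Pard6b, a PAR6 subunit, rose from 9.27 ± 0.511 to 15.8 ± 0.978 CPM (edgeR log2 fold change 0.77, SE 0.158, adjusted p = 0.0126), a call lost without control 2 or knockout 2 (0.0672 and 0.0543). Llgl2, a lethal giant larvae homolog of the basolateral side, rose from 59.2 ± 2.90 to 82.8 ± 9.56 CPM (edgeR log2 fold change 0.48, SE 0.118, adjusted p = 0.0279). Its call was lost without control 1, control 2, knockout 1 or knockout 2 (edgeR adjusted p 0.103, 0.101, 0.114 and 0.0687). Lin7c, an adaptor of the Crumbs complex and with Llgl2 the gene of highest CPM in this role, had a log2 fold change of 0.34 and was not called (edgeR adjusted p = 0.143).

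Of 12 regulators, 2 were called (16.7%, against 7.07% of all genes), a membrane protease and its inhibitor. St14, the matriptase gene, measured 67.5, 94.1 and 64.4 CPM in controls 1 to 3, against 156, 152 and 116 CPM in knockouts 1 to 3. The groups did not overlap, and the mean rose from 75.3 ± 16.3 to 141 ± 22.2 CPM (edgeR fitted fold 1.87, log2 fold change 0.91, SE 0.162, adjusted p = 0.00602). Spint1, which encodes the matriptase inhibitor HAI-1, rose from 148 ± 9.65 to 230 ± 22.5 CPM (edgeR fitted fold 1.55, log2 fold change 0.63, SE 0.118, adjusted p = 0.00770). Both calls held without any single library. Spint2, which encodes the related inhibitor HAI-2 and had the highest CPM of the list, without regard to length, stood at 418 and 421 CPM (log2 fold change 0.01, edgeR adjusted p = 0.977). Epcam, which binds and stabilises claudin-7, stood at 195 ± 9.11 and 248 ± 26.9 CPM, and its log2 fold change of 0.35 did not pass (edgeR adjusted p = 0.101).

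**Figure D3:**
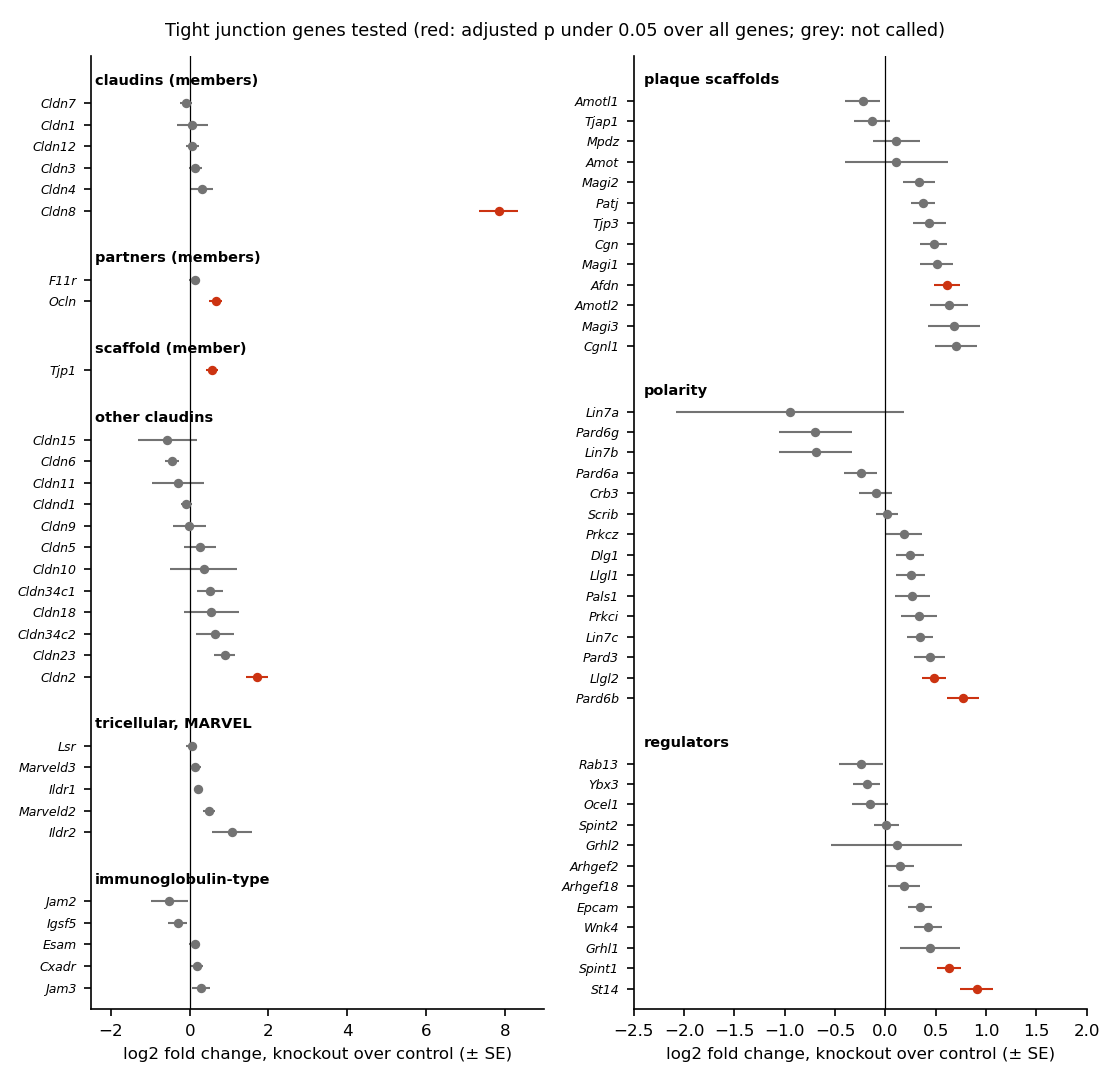
Log2 fold change, knockout over control, with its SE for the 9 members and the tested genes of the tight junction list that are reported here, by role (red, edgeR adjusted p under 0.05 over all genes; grey, not called; the panels have different axes). Each red point lies above 0, with Cldn8 at 7.85 and Cldn2 at 1.72.

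Transcript length moved with the contrast over all genes. The median log2 fold change was -0.17 for genes of up to 2 kb of exon, -0.06 from 2 to 4 kb, 0.06 from 4 to 8 kb and 0.16 above 8 kb, and 1.30%, 2.82%, 5.24% and 6.70% of them were called higher. Tjp1 (7.81 kb), Ocln (4.22 kb) and Afdn (10.2 kb) fall in the upper classes, while Cldn8 (2.36 kb) and Cldn2 (3.33 kb) do not. The part of length in these results was not tested.

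Within each group, the order of libraries by member level was set beside their acinar content. The summed level of 16 acinar markers was 40830, 63640 and 31580 CPM in controls 1 to 3, against 41580, 85230 and 24880 CPM in knockouts 1 to 3. Cldn4, Ocln and F11r had the same order of libraries as this sum in both groups, and Cldn3, Cldn4, Cldn7, Ocln and F11r had their highest library where the sum was highest in both groups. Tjp1 and Cldn12 did not, and Cldn8 did not in knockout islets. Over all genes tested, the share with this order or this highest library was not computed. With 3 libraries a group, nothing is read from these matches. The duct marker Krt19 had the acinar order too, at 125, 202 and 114 CPM in the controls, against 144, 234 and 81.1 CPM in the knockouts. Other duct markers were not ordered one by one. The sum of the 12 duct markers did not have that order. It was 1819, 2356 and 2138 CPM in controls 1 to 3, against 1062, 1613 and 1500 CPM in knockouts 1 to 3. Like the acinar sum it was highest in library 2 of each group, but it was lowest in library 1. Between the groups the acinar sum overlapped, and 1 of its 16 markers was called (6.25%, against 7.07% of all genes), Bhlha15, which fell. Of the defining acinar genes, Ptf1a was at 0.645 to 3.995 CPM in control and 0.673 to 2.60 CPM in knockout libraries.

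**Figure D4:**
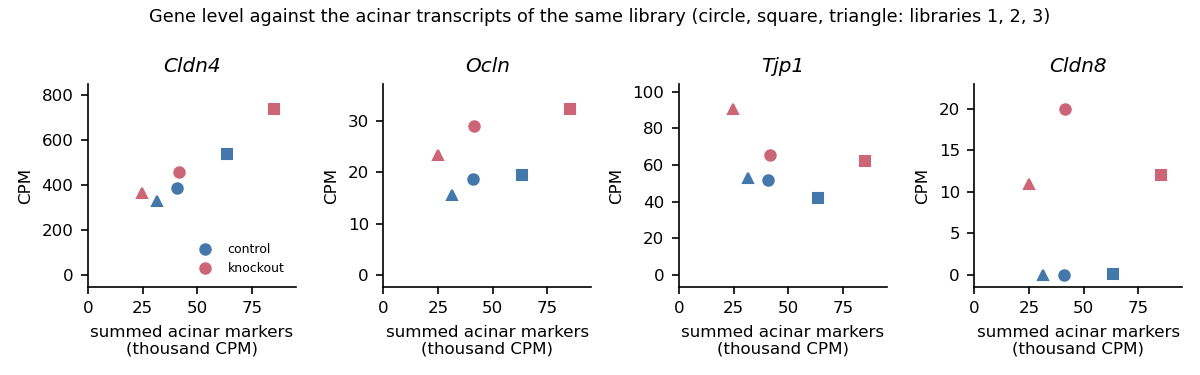
Level of Cldn4, Ocln, Tjp1 and Cldn8 (CPM, linear axes) against the summed level of 16 acinar markers in the same library (axis in units of 1000 CPM), 1 point per library. Cldn4 and Ocln are highest in library 2 of each group, where the acinar sum is 63640 and 85230 CPM, whereas Tjp1 is lowest there.

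With the acinar score as a covariate, Ocln and Tjp1 stayed called (edgeR adjusted p 0.00536 and 0.00389). With the libraries richest in acinar transcripts left out, control 2 and knockout 2, an alternative chosen after seeing the data, both lost their call (0.202 and 0.141) at log2 fold changes of 0.62 and 0.58. Afdn, Pard6b, Llgl2 and Spint1 lost theirs as well (edgeR adjusted p 0.118, 0.210, 0.201 and 0.0636) at log2 fold changes of 0.63, 0.68, 0.50 and 0.69. Cldn8, Cldn2 and St14 stayed called (edgeR adjusted p 1.86e-07, 0.0138 and 0.00594). That fit had 2 libraries a group. Without control 1 and knockout 1, the shallow libraries, Cldn8 was called (edgeR adjusted p = 0.00448), and Ocln and Tjp1 were not (0.185 and 0.186) at log2 fold changes of 0.67 and 0.68. Of the 7 called genes of the wider list, 0 were called by edgeR there (adjusted p 0.0590 to 0.237), with Cldn2 at a log2 fold change of 2.02, Afdn at 0.67, Pard6b at 0.81, Llgl2 at 0.36, St14 at 0.76 and Spint1 at 0.51. That fit also had 2 libraries a group, and 19 genes of the list had an unadjusted p under 0.05. The share of all genes under that threshold in this fit is not given here, so nothing is read from the 19. In the main edgeR fit that share was 21.6%.

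Duct markers differed in parts between the groups. Of 12 duct markers, 2 were called higher by edgeR (16.7%, against 3.72% of all genes). One of them was Cftr, the chloride channel of duct cells, which rose from 0.223 ± 0.120 to 1.48 ± 0.463 CPM (edgeR adjusted p = 0.0169). Sox9 stood at 3.92 ± 0.928 and 6.24 ± 2.91 CPM (edgeR adjusted p = 0.243). The summed duct level was 1819 to 2356 CPM in control and 1062 to 1613 CPM in knockout islets. The mean log2 level of the 12 markers, centred over the libraries, was -0.30, -0.28 and -0.29 in control 1, 2 and 3 and -0.11, 0.60 and 0.37 in knockout 1, 2 and 3, so this score and the sum differed in opposite directions. Spp1, the marker of highest CPM among the 12, stood at 1344 ± 166 CPM in control and 635 ± 251 CPM in knockout libraries. With the score as a covariate, which itself separates the groups, Cldn8 stayed called (edgeR adjusted p = 9.59e-05), and Ocln (0.437), Tjp1 (0.496), Cldn2 (0.204), Afdn (0.540), Pard6b (0.363), Llgl2 (0.227), St14 (0.196) and Spint1 (0.156) were not. In that fit the log2 fold change was 0.59 for Ocln, 0.54 for Tjp1, 1.67 for Cldn2, 0.38 for Afdn, 0.68 for Pard6b, 0.66 for Llgl2, 0.99 for St14 and 0.78 for Spint1. Over all 17 alternatives the lowest adjusted p came from edgeR without a filter for Cldn2 (3.87e-10), Afdn (0.000391), Llgl2 (0.00745) and St14 (2.43e-09). It came from DESeq2 for Pard6b (0.000246) and Spint1 (6.77e-05). Both settings also called more of all genes, 2153 without a filter and 2094 with DESeq2, against 1312 in the main fit.

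The sum of 10 endothelial markers ran from 277 to 338 CPM in control and from 318 to 405 CPM in knockout islets. These ranges overlapped. Of the 10, 8 were fitted above 0 and 2 below, with a median log2 fold change of 0.22, against -0.002 over all genes. Of the same 10, 2 were called, against 7.07% of all genes: Cdh5 was higher and Egfl7 lower. Pecam1 was at 31.9 to 37.2 CPM in control and 32.6 to 49.5 CPM in knockout libraries. The beta-cell sum of 8 markers was 187200 to 241900 CPM in control and 141100 to 158600 CPM in knockout islets. Of the 8, 2 were called lower (25.0%, against 3.35% of all genes). The sum of 3 delta and PP markers was 5989 to 9737 and 4062 to 5660 CPM. The sums for alpha cells (6 markers, 21060 to 32420 and 18790 to 23020 CPM), stroma (8 markers, 85.4 to 177 and 81.6 to 126 CPM), immune cells (6 markers, 20.8 to 36.3 and 21.2 to 28.3 CPM) and Schwann cells (4 markers, 9.81 to 15.8 and 9.06 to 11.1 CPM) overlapped. The part of each of these cell types in the levels of the junction genes was not tested.

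Among the genes with the profile most like that of Cldn8 were Dnah8, an axonemal dynein heavy chain, and Slc5a10, a sugar transporter. Likeness was the root-mean-square distance between log2 CPM profiles over the 6 libraries, each centred on its own mean, and it was 1.30 for Dnah8 and 1.92 for Slc5a10. Dnah8 measured 0.395, 0.187 and 0.113 CPM in controls 1 to 3, against 31.2, 18.4 and 19.0 CPM in knockouts 1 to 3. Slc5a10 measured 0.960, 0.660 and 0.721 CPM in the controls, against 31.0, 19.6 and 10.8 CPM in the knockouts. Like Cldn8, both were below 1 CPM in every control library and above 10 CPM in every knockout library. Both genes were picked by this likeness, so the shared pattern follows from the choice and is not a separate finding. For Cldn7, the member with the lowest log2 fold change, the nearest genes were Nufip1, Esrp2 and Impdh2, at distances of 0.0530, 0.0560 and 0.0570. The 6 libraries are the only points behind these distances.

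**Figure D5:**
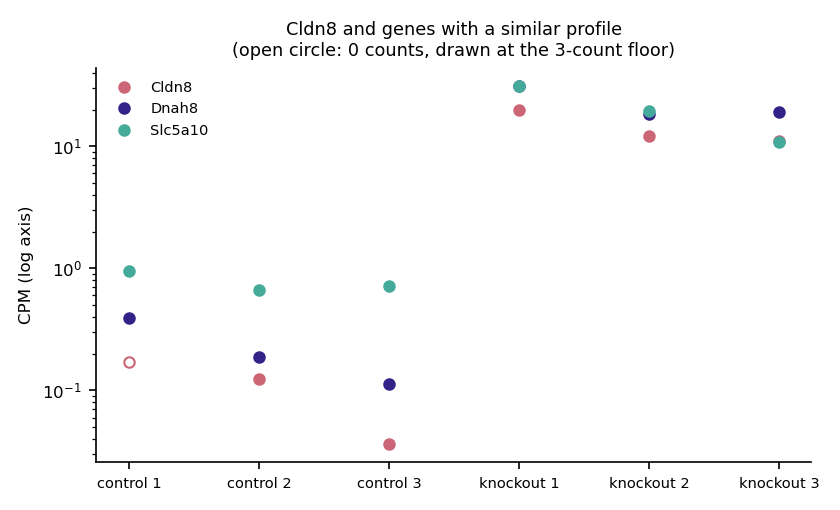
CPM (log axis) of Cldn8, Dnah8 and Slc5a10 in each of the 6 libraries, 1 point per gene and library; the open circle marks 0 counts of Cldn8 in control 1, drawn at the floor of 3 counts. Dnah8 and Slc5a10 were picked for their likeness to Cldn8. Every control point is at or below 0.960 CPM and every knockout point at or above 10.8 CPM.

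Cldn4, Ocln and F11r, the members that shared one order of libraries, are shown with their promoter windows, 250 bases before to 50 after the RefSeq start in GRCm38.p6, 5′ to 3′ on the gene's strand. Capitals mark CACCTG or its reverse complement, the E-box bound by SNAIL and ZEB factors, which are known as repressors of junction genes. The windows are chr5:134946885-134947184 (minus strand), chr13:100552449-100552748 (minus strand) and chr1:171437311-171437610 (plus strand). Ocln has another, overlapping window, chr13:100552669-100552968 (minus strand), which holds 1 match of CACCTG and is not shown.
Cldn4 promoter window: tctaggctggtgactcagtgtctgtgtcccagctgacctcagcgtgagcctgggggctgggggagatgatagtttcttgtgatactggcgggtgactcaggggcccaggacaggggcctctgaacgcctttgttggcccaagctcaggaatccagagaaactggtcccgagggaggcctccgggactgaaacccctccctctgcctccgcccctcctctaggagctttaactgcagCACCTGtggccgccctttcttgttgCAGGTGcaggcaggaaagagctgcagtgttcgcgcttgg
Ocln promoter window: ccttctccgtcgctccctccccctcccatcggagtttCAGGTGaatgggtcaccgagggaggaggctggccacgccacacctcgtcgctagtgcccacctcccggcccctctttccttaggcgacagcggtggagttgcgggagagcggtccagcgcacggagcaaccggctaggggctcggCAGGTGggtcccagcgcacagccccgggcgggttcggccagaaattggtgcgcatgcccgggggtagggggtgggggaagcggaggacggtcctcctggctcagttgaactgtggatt
F11r promoter window: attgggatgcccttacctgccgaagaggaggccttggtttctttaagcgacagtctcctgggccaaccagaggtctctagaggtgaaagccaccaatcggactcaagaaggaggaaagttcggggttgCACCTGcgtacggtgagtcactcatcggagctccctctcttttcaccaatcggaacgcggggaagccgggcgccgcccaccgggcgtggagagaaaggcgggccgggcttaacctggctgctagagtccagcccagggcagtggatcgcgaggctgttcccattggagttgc
The RefSeq table held 12 windows for 8 of the 9 members, all but Cldn8. CACCTG, searched on both strands, was in 6 of the 12 windows, from Cldn3, Cldn4, Cldn7, F11r and Ocln, against 20.2% of all 32851 windows. The grainyhead core AACNNGTT was in 0 of the 12 (4.20% of all), the STAT site TTCNNNGAA in 3 (8.30%; Cldn7 and Cldn12) and the homeodomain core TAATTA in 1 (5.30%; Cldn1). The window of Cldn2 held none of the 4. No one of the 4 motifs contains another, and windows of Ocln and of Cldn12 share bases, so that 1 stretch can be counted in more than 1 window. A match is a description of the letters and not a site of binding. Cldn3 and Cldn7 also held CACCTG, and their control libraries had another order than those of Cldn4, Ocln and F11r. With 3 libraries a group, nothing is read from these orders, and a link between the motif and the order of libraries was not tested.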

How the data were processed

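Total RNA of whole islets was measured in 6 libraries. The authors deposited whole-number counts per Ensembl gene, not normalized. The tools were STAR 2.7.3a, featureCounts, Trim Galore 0.6.7 and FastQC 0.11.9, with the build GRCm39, per the submitters' processing notes. For the annotation release, strand setting and read pairs, the sources used here give nothing. Between 62.3% and 73.2% of the counts above 0 were even, depending on the library, a pattern seen when each mate adds its own count. Reads of overlapping or antisense genes cannot be told apart without a strand setting. Column names give the group but not the animal, so libraries are numbered by column.

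Of 56980 IDs, 52073 were given a symbol through their gene ID. In R 4.3.3, edgeR 4.0.16 tested knockout against control over 18558 genes: filterByExpr, TMM scaling, the robust quasi-likelihood test, and Benjamini-Hochberg adjustment over all genes; called means an adjusted p under 0.05. Log2 fold changes are knockout over control. CPM was computed from the counts with TMM-scaled sizes. Exon lengths (union of exons) came from GENCODE M21 (GRCm38) by gene ID; promoters came from RefSeq (GRCm38.p6), another build than that of the counts. The test was checked on simulated data. It called 12 of 66 genes changed by a fold of 1.5 (18.2%), 36 of 65 at 2 (55.4%) and 52 of 62 at 4 (83.9%). Of 17824 genes without a change it called 15. A gene that was not called can therefore still differ, above all at small folds. The simulation changed fewer genes than the 1312 called in the real contrast, so its shares need not hold there.

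Members, gene lists, tests and alternatives were chosen with earlier results of these data known. Named were all members, each called gene and the 2 genes of highest mean CPM in each role of the tight junction list, the 3 genes most like the members with the highest and lowest log2 fold change (among members with a mean of at least 1 CPM; candidates with a mean of at least 5 CPM and a proper symbol), defining cell type markers and Ssbp3. Markers outside that rule, Cftr, Spp1, Bhlha15 and Egfl7, were singled out with their values in view. A few genes within these rules are left out of the text and figures. The alternatives were 3 scalings, 2 filters, DESeq2 1.42.0, limma-voom (limma 3.58.1), an acinar or duct score as covariate, each library left out, and both shallow libraries left out.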

Additional observations from a re-analysis of the deposited data

How the results depend on the processing

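Over 17 alternatives, 16 of them planned, the number of called members was 3 in 8, and the call of Cldn8 held in all 17. It was 1 with the duct covariate, 1 without both shallow libraries, 1 without the libraries richest in acinar transcripts (an alternative chosen after seeing the data), and 1 to 2 with 1 library left out. Called genes over all genes numbered 1312 and became 2153 without a filter, 2094 with DESeq2, 2058 with the acinar covariate, 85 with the duct covariate, 124 without both shallow libraries, 361 without the libraries richest in acinar transcripts and 519 to 1309 with 1 library left out. Called genes of the tight junction list numbered 7 and became 12 without a filter, 13 with DESeq2, 11 with limma-voom, 15 with the acinar covariate, 0 by edgeR with the duct covariate (12 at an unadjusted p under 0.05), 0 by edgeR without both shallow libraries (19 at an unadjusted p under 0.05), 2 without the libraries richest in acinar transcripts and 4 to 9 with 1 library left out. For these unadjusted counts the share of all genes in the same fits is not given here, so nothing is read from them. In the main edgeR fit 21.6% of all genes had an unadjusted p under 0.05. With upper-quartile factors 613 genes were higher and 829 lower, against 691 and 621, and Ocln and Tjp1 were called under each of the 3 scalings. Fits without both shallow or both acinar-rich libraries had 2 libraries a group. No paired analysis was possible because the column names carry no animal and the sample titles share a single number between the groups. Depth limits Cldn8 in control islets: 3 counts are 0.169 CPM in control 1, above the level seen in control 2 and 3.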
